A study of Mus musculus with 28 samples.

Results

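The genes described here were 9 transcription factors of the telencephalon and striatum, *Dlx1*, *Dlx2*, *Dlx5*, *Dlx6*, *Foxp1*, *Foxp2*, *Six3*, *Meis2* and *Bcl11b*. They were chosen by name, matched by Ensembl identifier, and make up 9 of the 29878 genes in the deposited count tables. All 9 passed a counts-per-million (CPM) filter, which asked for more than 1 CPM in at least 2 libraries, as did 14979 genes in all. RNA-seq had been performed on 4 brain regions of adult male mice, 2 to 3 months old on a C57Bl/6 background, that were wild type (WT), heterozygous or knockout (KO) for *Hdc*. *Hdc* encodes histidine decarboxylase, the enzyme that makes histamine, and the deletion is a germline one. The 28 libraries fell into 12 groups. WT, heterozygous and KO libraries numbered 2, 3 and 2 in dorsal striatum, 3, 3 and 2 in ventral striatum and again in hypothalamus, and 1, 2 and 2 in motor cortex. Libraries are named by genotype, region and the number in their label, which ran from 1 to 8 and was taken as a replicate number only. No library received a drug or other treatment.

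The *Dlx* genes encode homeodomain proteins that direct ventral telencephalic progenitors to become GABAergic neurons, and they lie on the chromosome in convergent pairs. *Foxp1* and *Foxp2* are forkhead repressors, *Six3* and *Meis2* are homeodomain proteins, and *Bcl11b* (also called CTIP2) is a zinc-finger protein needed for spiny neuron differentiation in the striatum and for deep-layer output neurons of the cortex. GABAergic spiny projection neurons make up most striatal neurons, whereas most cortical neurons are glutamatergic and most cortical GABAergic cells are interneurons.

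Libraries held 3536802 to 5150280 counts on genes (median 4392301). Tissue labels were checked against marker genes. *Drd1*, the dopamine receptor of direct-pathway spiny neurons, had a median of 227 CPM in dorsal and 109 CPM in ventral striatum, against 2.81 CPM in hypothalamus and 5.41 CPM in motor cortex. *Slc17a7*, the vesicular glutamate transporter of cortical neurons, was at 1041 to 1185 CPM in motor cortex. Outside the hypothalamus *Hdc* itself was lowest in WT libraries, at 0 to 1.62 CPM in WT, 4.17 to 6.73 CPM in heterozygous and 7.84 to 12.9 CPM in labelled KO libraries. In the hypothalamus it was at 15.3 to 19.1 CPM in WT, 14.6 to 21.8 CPM in heterozygous, and 14.2 and 11.7 CPM in labelled KO libraries, which were its lowest there. The counts cover the whole gene, so they cannot show whether the deleted part was missing, and KO is used below as the label. Some libraries stood apart. Dorsal striatum KO 8 had a summed level of choroid plexus markers of 2952 CPM, against 5.10 to 73.0 CPM in the other dorsal striatum libraries. Dorsal striatum KO 7 and hypothalamus KO 8 carried *Slc17a7* at 179 and 198 CPM, against region medians of 5.10 and 22.7 CPM. Every count of genes that differed between regions was therefore repeated without all KO libraries.

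Between dorsal striatum and motor cortex, 7 of the 9 genes were higher in dorsal striatum (*Dlx5*, *Dlx6*, *Foxp1*, *Foxp2*, *Six3*, *Meis2* and *Bcl11b*), 1 was lower (*Dlx1*) and 1 was not called (*Dlx2*). The median log2 difference of the 9 genes was 2.51, against 0.03 over all genes tested. A call was an adjusted p below 0.05 in edgeR's likelihood ratio test, fitted over all genes and averaged over genotypes, and it was given to 43.4% of genes tested (21.4% higher and 22% lower). Without the KO libraries 7 were again called higher and 1 lower. Within each genotype taken alone the counts were also 7 and 1, where 21.3% (WT), 29.8% (heterozygous) and 25.6% (KO) of genes tested were called. In bulk tissue, fewer cells of a type and less RNA per cell cannot be told apart. Among the other cell types, all 14 oligodendrocyte markers were also higher in dorsal striatum than in motor cortex, and all 9 markers of cortical excitatory neurons were lower. Their part in the differences of the 9 genes was not tested.

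**Figure D1:**
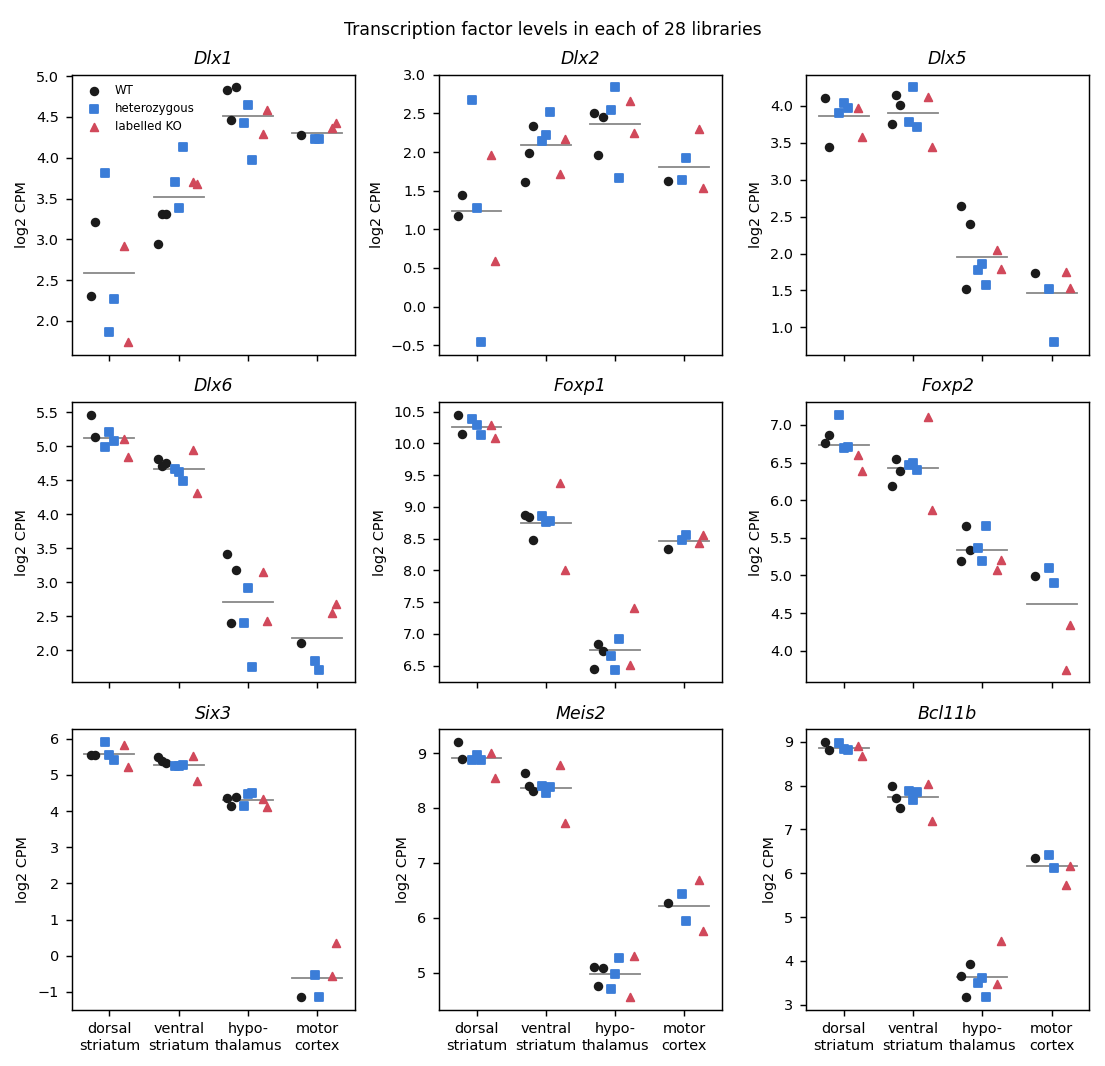
Level of each of the 9 genes in every library, as log2 CPM with a prior count of 2 (vertical axes, which do not start at 0), by brain region (horizontal axis). Each point is 1 library, shaped by genotype label, and the bar is the mean of the region's libraries. Dlx5, Dlx6, Foxp1, Foxp2, Six3, Meis2 and Bcl11b were highest in dorsal or ventral striatum, Dlx1 ran the other way, and Six3 was at 0 to 0.811 CPM in motor cortex.

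The convergent pair *Dlx6* and *Dlx5* was striatal. On GRCm38 the genes lie at chr6:6863334-6868568 on the plus strand and chr6:6877805-6882085 on the minus strand, 9236 bases apart. *Dlx6* ranged from 28.3 to 43.8 CPM in dorsal striatum (median 34.1, n = 7) and from 19.5 to 30.5 CPM in ventral striatum (median 25.5, n = 8). It ranged from 2.92 to 10.3 CPM in hypothalamus (median 6.01, n = 8), and was at 3.85 CPM in the WT, 3.14 and 2.83 CPM in the heterozygous, and 5.38 and 5.95 CPM in the KO libraries of motor cortex. The striatal libraries lay above all hypothalamic and cortical ones with no overlap. The level was 8.55-fold higher in dorsal striatum than in motor cortex (log2 difference 3.10, adjusted p = 3.29e-56, edgeR likelihood ratio test) and 5.40-fold higher than in hypothalamus. It was also 1.37-fold higher in dorsal than in ventral striatum (adjusted p = 0.00124), although libraries of both striatal regions overlapped.

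*Dlx5* was not called between the striatal regions. It ranged from 10.4 to 16.8 CPM in dorsal striatum (median 15.2) and from 10.4 to 18.6 CPM in ventral striatum (median 14.5). The log2 difference was -0.06, with a 95% interval from -0.36 to 0.23 (adjusted p = 0.823), and it changed sign when ventral striatum KO 7 (0.07) or dorsal striatum WT 2 (0.05) was left out. In hypothalamus *Dlx5* was at 2.41 to 5.81 CPM (median 3.09), and in motor cortex at 2.88, 2.41, 1.29, 2.91 and 2.43 CPM. Its level was 5.68-fold higher in dorsal striatum and 5.93-fold higher in ventral striatum than in motor cortex, and all striatal libraries lay above all others.

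*Dlx1* ran the other way. It was at 4.50 and 8.84 CPM in the WT, 13.7, 3.19 and 4.36 CPM in the heterozygous, and 7.14 and 2.89 CPM in the KO libraries of dorsal striatum. In motor cortex it was at 19.0, 18.4, 18.3, 20.2 and 21.1 CPM, and in hypothalamus it ranged from 15.2 to 28.7 CPM (median 22.6). Every dorsal striatum library was thus below every cortical and hypothalamic library, and ventral striatum, at 7.21 to 17.0 CPM (median 11.2), overlapped with dorsal striatum and hypothalamus. The level in dorsal striatum was 3.05-fold lower than in motor cortex (log2 difference -1.61, 95% interval -2.07 to -1.14, adjusted p = 3.3e-11), 3.54-fold lower than in hypothalamus (adjusted p = 8.97e-18) and 1.78-fold lower than in ventral striatum (adjusted p = 6.43e-04, edgeR likelihood ratio test). Ventral striatum was 1.71-fold below motor cortex (adjusted p = 0.00118). Between hypothalamus and motor cortex the log2 difference of 0.22 was not called.

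Its partner *Dlx2* was sparsely read, with 1 to 29 counts a library in dorsal striatum. It was at 1.80 and 2.27 CPM in the WT, 5.91, 1.962 and 0.272 CPM in the heterozygous, and 3.45 and 1.05 CPM in the KO libraries of that region. Ventral striatum ranged from 2.60 to 5.27 CPM (median 4.02), hypothalamus from 2.73 to 6.70 CPM (median 5.12) and motor cortex from 2.43 to 4.48 CPM. All 4 regions overlapped. The only call among regions was dorsal striatum below hypothalamus, 2.03-fold lower (adjusted p = 0.00166, edgeR likelihood ratio test). Its lower level in dorsal than in ventral striatum missed the threshold (log2 difference -0.67, adjusted p = 0.0945) and passed it without dorsal striatum heterozygous 4 (-1.10, adjusted p = 0.00111) or KO 7 (-1.04, adjusted p = 0.0209). The library with the highest *Dlx1* and *Dlx2* of the region, heterozygous 4, also had the highest summed ependymal markers in dorsal striatum (42.2 CPM) and the largest share of uniquely mapped reads outside genes of all libraries (29.6%). The part of either in the 2 *Dlx* values was not tested.

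*Dlx1* at chr2:71528113-71533981 on the plus strand and *Dlx2* at chr2:71543408-71546754 on the minus strand lie 9426 bases apart and also face each other. The first 250 bases upstream of the RefSeq start of *Dlx2* (chr2:71546755-71547004, minus strand, GRCm38.p6) are shown, since this pair, unlike the other genes, was called lower in dorsal striatum than in hypothalamus. No capital letters appear, as none of the motifs named next was found in its window, which had a GC content of 66.3%.
Dlx2: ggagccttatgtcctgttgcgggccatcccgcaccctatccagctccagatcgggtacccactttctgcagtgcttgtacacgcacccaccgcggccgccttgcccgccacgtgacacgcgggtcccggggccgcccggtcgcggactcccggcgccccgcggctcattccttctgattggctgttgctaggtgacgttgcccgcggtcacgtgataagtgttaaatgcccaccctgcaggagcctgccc
Each window of 300 bases (250 before and 50 after the start) was searched on both strands for TAATTA, a homeodomain core held by 5.29% of all 32851 windows, TGTTTAC, a forkhead motif held by 3.65%, and TGACAG, a motif bound by MEIS proteins and held by 19.2%. RefSeq gave 8 windows for 6 of the 9 genes, among them a *Dlx1* window with a GC content of 69.3% and also without a match. Windows of *Bcl11b*, *Dlx1*, *Meis2* and both outer *Foxp1* starts hold untranslated bases of other transcripts and are not printed. That of *Meis2* also holds 12 coding bases.

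Across the 28 libraries, log2 CPM of *Dlx5* and *Dlx6* had a Pearson r of 0.968, and *Dlx1* and *Dlx2* of 0.706. With the 12 group means removed, these were 0.707 and 0.713. Between the pairs, *Dlx1* went in the opposite direction, with r of -0.712 with *Dlx5* and -0.749 with *Dlx6*. These became -0.002 and 0.09 with the group means removed. For *Dlx2* r was nearer 0, at -0.249 with *Dlx5* and -0.296 with *Dlx6*, and became 0.137 and 0.236. The points share libraries, depth and 4 regions, so the correlations describe these libraries only.

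*Foxp1* was the more regionally graded of the forkhead pair. It ranged from 1087 to 1401 CPM in dorsal striatum (median 1251) and from 257 to 663 CPM in ventral striatum (median 447). In motor cortex it was at 324 CPM in the WT, 355 and 376 CPM in the heterozygous, and 343 and 375 CPM in the KO libraries, and in hypothalamus it ranged from 86.2 to 170 CPM (median 103). Dorsal striatum stood above every other library, while ventral striatum and motor cortex overlapped. The level in dorsal striatum was 2.75-fold that of ventral striatum (adjusted p = 5.94e-23), 3.50-fold that of motor cortex (adjusted p = 4e-23) and 11.0-fold that of hypothalamus (adjusted p = 1.25e-108, edgeR likelihood ratio test). Ventral striatum was not called against motor cortex (log2 difference 0.35, adjusted p = 0.0677). That difference passed the threshold without the KO libraries (0.35, adjusted p = 0.0111), without ventral striatum KO 8 alone (0.52, adjusted p = 1.36e-04) and without ventral striatum WT 3 alone (0.39, adjusted p = 0.0443).

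*Foxp1* spans chr6:98925338-99522721 on the minus strand, and 1 of its 3 RefSeq windows, at an internal start, held motifs in its upstream part. It is shown here because it alone among the 8 windows held the homeodomain core. Capitals mark TAATTA, at position -240 from the start, and CTGTCA, which is TGACAG on the other strand, at position -151 (chr6:99266516-99266765, minus strand, GRCm38.p6).
Foxp1: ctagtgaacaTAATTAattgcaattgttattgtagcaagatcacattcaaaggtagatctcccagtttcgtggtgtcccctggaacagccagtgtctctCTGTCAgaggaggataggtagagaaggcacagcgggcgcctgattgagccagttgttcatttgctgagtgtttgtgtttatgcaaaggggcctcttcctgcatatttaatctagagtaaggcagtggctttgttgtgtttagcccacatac
The last 17 of these bases lie in an exon of other *Foxp1* transcripts. A match describes letters only.

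*Foxp2*, at chr6:14901349-15441977 on the plus strand, has a human orthologue known for its part in speech. It ranged from 83.2 to 140 CPM in dorsal striatum (median 104), from 58.2 to 138 CPM in ventral striatum (median 86.0) and from 33.2 to 49.9 CPM in hypothalamus (median 38.2). In motor cortex it was at 31.5 CPM in the WT, 33.8 and 29.3 CPM in the heterozygous, and 13.0 and 19.7 CPM in the KO libraries. Striatal libraries lay above all others, and the striatal regions overlapped. The level was 4.17-fold higher in dorsal striatum (adjusted p = 1.55e-32) and 3.53-fold higher in ventral striatum than in motor cortex, and it was 1.56-fold higher in hypothalamus than in motor cortex (adjusted p = 2.17e-04, edgeR likelihood ratio test). Between the striatal regions the log2 difference of 0.24 was not called (adjusted p = 0.157), and it was called without ventral striatum KO 7 (0.49, adjusted p = 1.5e-05), which had the highest *Foxp2* level of its region. It was also called without all KO libraries (0.41, adjusted p = 3.56e-04).

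*Six3* was nearly unread in motor cortex. Its counts there were 0 in the WT library, 1 and 0 in the heterozygous and 1 and 3 in the KO libraries, 5 in all. A count of 0 allows up to 0.721 CPM in the WT library and 0.772 CPM in heterozygous 6, for counting error only. The other regions had 36.5 to 59.5 CPM (dorsal striatum, median 46.2), 27.8 to 45.6 CPM (ventral striatum, median 38.8) and 17.0 to 22.02 CPM (hypothalamus, median 19.9). Every library of these regions lay far above every cortical library. Over summed counts, dorsal striatum was 197 times motor cortex, with an exact 95% counting interval of 84.0 to 606, ventral striatum 158 times (67.5 to 487) and hypothalamus 79.0 times (33.7 to 244). Such intervals do not cover the spread between mice. In the fit over all genes, the adjusted p of dorsal striatum against motor cortex was 1.08e-139. Dorsal striatum was 2.46-fold higher than hypothalamus (adjusted p = 5.62e-28) and 1.23-fold higher than ventral striatum (log2 difference 0.30, adjusted p = 0.0299, edgeR likelihood ratio test). The last call was lost in DESeq2's Wald test (adjusted p = 0.0511), with total-count scaling (adjusted p = 0.336) and without any of 6 single libraries. These were dorsal striatum WT 1 (adjusted p = 0.0601), WT 2 (0.0652), heterozygous 4 (0.0811) and KO 7 (0.268), and ventral striatum WT 3 (0.0567) and KO 8 (0.194).

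*Six3* lies at chr17:85613608-85629302 on the plus strand. Its window is shown because *Six3* had the largest difference between regions, and capitals mark TGACAG at position -139 from the start (chr17:85620584-85620833, plus strand, GRCm38.p6). The last 44 bases shown overlap an exon of the antisense gene *Gm28528*.
Six3: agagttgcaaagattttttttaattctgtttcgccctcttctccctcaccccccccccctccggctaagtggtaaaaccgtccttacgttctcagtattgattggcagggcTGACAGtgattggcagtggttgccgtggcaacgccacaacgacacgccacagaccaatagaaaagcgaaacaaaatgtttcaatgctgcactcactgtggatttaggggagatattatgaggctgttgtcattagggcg
Antisense partners share exon bases with *Dlx1* (*Dlx1as*, 335 bases), *Dlx6* (*Dlx6os2*, 104 bases) and *Six3* (*Six3os1*, 106 bases, and *Gm28528*, 168 bases). They were not analysed here. The strand setting of the counting is not given in the sources used here, so reads from the shared bases cannot be told apart.

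*Meis2* and *Bcl11b* had the steepest contrast between striatum and hypothalamus. *Meis2*, at chr2:115863064-116065839 on the minus strand, ranged from 372 to 587 CPM in dorsal striatum (median 472), from 210.5 to 438 CPM in ventral striatum (median 335) and from 23.2 to 39.3 CPM in hypothalamus (median 32.4). In motor cortex it was at 76.7 CPM in the WT, 85.7 and 61.5 CPM in the heterozygous, and 103.5 and 54.1 CPM in the KO libraries. Motor cortex thus lay between striatum and hypothalamus without overlap. The level in dorsal striatum was 6.31-fold that of motor cortex (adjusted p = 2.04e-42) and 15.3-fold that of hypothalamus, and it was 1.44-fold that of ventral striatum (adjusted p = 0.00106, edgeR likelihood ratio test), with overlap.

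*Bcl11b*, at chr12:107910403-108003602 on the minus strand, followed the same order. It ranged from 412.5 to 511 CPM in dorsal striatum (median 455), from 146 to 264.5 CPM in ventral striatum (median 222) and from 8.57 to 21.5 CPM in hypothalamus (median 11.2). Motor cortex was at 81.2 CPM in the WT, 85.5 and 68.7 CPM in the heterozygous, and 52.6 and 71.1 CPM in the KO libraries. No library of a region overlapped with those of another. The dorsal striatum level was 2.16-fold that of ventral striatum (adjusted p = 2.7e-18), 6.37-fold that of motor cortex (adjusted p = 7.08e-58) and 37.0-fold that of hypothalamus (log2 difference 5.21, adjusted p = 2.45e-254, edgeR likelihood ratio test).

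**Figure D2:**
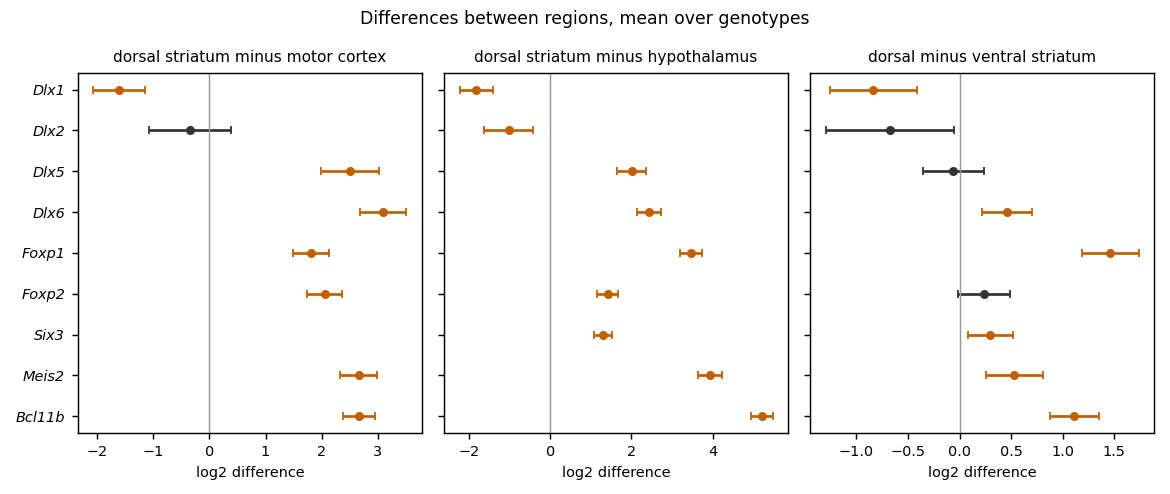
Log2 difference between regions for the 9 genes, averaged over genotypes (horizontal axes, log2 difference), with 95% intervals. Panels set dorsal striatum against motor cortex, hypothalamus and ventral striatum, values right of 0 are higher in dorsal striatum, and orange marks a call. Dlx1 lies left of 0 in all 3 panels, Bcl11b reaches 5.21 against hypothalamus, and Six3 has no interval against motor cortex and is left out there.

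The remaining region counts followed these values. Ventral striatum had 6 genes higher and 1 lower than motor cortex, where 43.7% of all genes tested were called (22.2% higher and 21.5% lower). Dorsal striatum had 7 higher and 2 lower (*Dlx1* and *Dlx2*) than hypothalamus, against 56.1% called (25.5% and 30.7%). Ventral striatum had 7 higher and 1 lower than hypothalamus, against 43.6% (19.7% and 23.9%). Hypothalamus had 3 genes higher than motor cortex (*Dlx6*, *Foxp2* and *Six3*) and 3 lower (*Foxp1*, *Meis2* and *Bcl11b*), against 48.2% (25.4% and 22.9%). The call of *Dlx6* in that pair was lost without hypothalamus KO 7 (log2 difference 0.49, adjusted p = 0.0819). Without the KO libraries the total number called was 8, 9, 8 and 6 in the same order, against 7, 9, 8 and 6 with them. The gene gained in the first pair was *Foxp1*.

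Between the striatal regions, 5 genes were higher in dorsal striatum (*Dlx6*, *Foxp1*, *Six3*, *Meis2* and *Bcl11b*) and *Dlx1* was lower, where 29% of genes tested were called (14.6% higher and 14.4% lower). Without the KO libraries 6 were higher, with *Foxp2* added. *Foxp1* and *Bcl11b* were called higher within each genotype, with log2 differences of 1.57, 1.47 and 1.35 for *Foxp1* and 1.16, 1.06 and 1.115 for *Bcl11b* in WT, heterozygous and KO libraries. Within a genotype, 15.5% (WT), 14.4% (heterozygous) and 11.7% (KO) of genes were called between these regions. *Dlx1* was called lower in heterozygous (-0.86, adjusted p = 0.0489) and KO libraries (-1.29, adjusted p = 0.0187) and was at -0.36 in WT (adjusted p = 0.631, edgeR likelihood ratio test). The test of this difference between KO and WT libraries, among those given below, was not called, and whether heterozygous libraries departed from the others was not tested. Summed markers of spiny neurons, 17 genes from *Drd1* to *Actn2*, also differed, at 11640 to 16020 CPM in dorsal and 3016 to 6344 CPM in ventral striatum, and 16 of the 17 were called higher in dorsal striatum.

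Ventral striatum libraries also varied in these markers. KO 7 had the highest spiny marker sum (6344 CPM) and the highest *Foxp1* (663 CPM), *Bcl11b* (264.5 CPM), *Meis2* (438 CPM), *Foxp2* (138 CPM), *Six3* (45.6 CPM) and *Dlx6* (30.5 CPM). KO 8 had the lowest sum (3016 CPM) and the lowest value of all 6 genes (*Foxp1* 257, *Bcl11b* 146, *Meis2* 210.5, *Foxp2* 58.2, *Six3* 27.8 and *Dlx6* 19.5 CPM). It also had the highest hypothalamic marker sum of the region (74.9 CPM). Over the 8 libraries the Pearson r with the spiny marker sum was 0.937 for *Foxp1*, 0.906 for *Bcl11b*, 0.857 for *Meis2*, 0.799 for *Six3*, 0.728 for *Foxp2*, 0.676 for *Dlx6* and 0.548 for *Dlx5*, but -0.103 for *Dlx1* and -0.548 for *Dlx2*. With the sum of cortical excitatory markers r was also high, at 0.933 for *Bcl11b*, 0.82 for *Meis2* and 0.802 for *Foxp1*. In the 7 dorsal striatum libraries r with the spiny marker sum was 0.956 for *Dlx6*, 0.848 for *Meis2*, 0.591 for *Foxp1*, 0.555 for *Bcl11b* and 0.52 for *Dlx5*. It was 0.047 for *Six3*, -0.039 for *Foxp2*, -0.048 for *Dlx2* and -0.218 for *Dlx1*. These r values are a description, since the points share their libraries and the scale of a library moves both axes. The 2 KO libraries of ventral striatum were thus its extremes, and the part of cell makeup in these values was not tested.

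**Figure D3:**
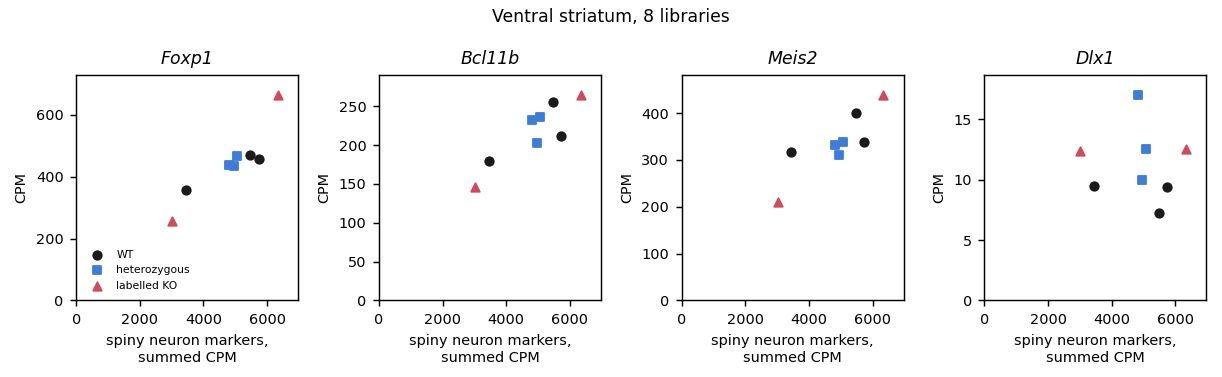
Ventral striatum, 8 libraries, with the CPM of Foxp1, Bcl11b, Meis2 and Dlx1 (vertical axes) against the summed CPM of 17 spiny neuron markers (horizontal axes). Each point is 1 library, shaped by genotype label. The KO libraries sit at both ends for Foxp1, Bcl11b and Meis2, at 3016 and 6344 CPM of markers, while Dlx1 was at 12.4 and 12.5 CPM in them.

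Levels of different genes were compared per length, as CPM per kilobase of merged exon (RPKM). In dorsal striatum mean levels ran from *Foxp1* (89.1 RPKM) over *Bcl11b* (57.3), *Meis2* (40.1) and *Dlx6* (14.6) to *Six3* (8.75), *Foxp2* (6.57), *Dlx5* (6.29), *Dlx1* (1.18) and *Dlx2* (0.836 RPKM). There, libraries of neighbours in this order overlapped for *Six3* and *Foxp2*, *Foxp2* and *Dlx5*, and *Dlx1* and *Dlx2* only. In ventral striatum *Foxp1* (32.2), *Meis2* (27.9) and *Bcl11b* (26.7 RPKM) overlapped, and *Dlx2* was again the lowest (1.36 RPKM). In hypothalamus *Foxp1* (7.94 RPKM) led and *Dlx1* was next (4.21 RPKM), with each neighbour from *Dlx1* down to *Bcl11b* (1.52 RPKM) overlapping. In motor cortex *Foxp1* (25.8), *Bcl11b* (8.86), *Meis2* (6.33) and *Dlx1* (3.59 RPKM) were above *Dlx6* (1.78), *Foxp2* (1.56), *Dlx2* (1.09) and *Dlx5* (1.05), and *Six3* was at 0.0469 RPKM. *Dlx1* thus ranked 8 of the 9 in both striatal regions, 2 in hypothalamus and 4 in motor cortex.

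No gene of the 9 was called between genotypes in any region. In the 12 comparisons of KO, heterozygous and WT libraries, 0 of 108 tests passed an adjusted p of 0.05 by edgeR's likelihood ratio test, its quasi-likelihood test or DESeq2, and 5 of 108 had an unadjusted p below 0.05 in each. The 5 lay in 4 of the comparisons, where an unadjusted p below 0.05 was given to 5.62% of all genes tested (heterozygous against WT in hypothalamus), 5.55% (KO against heterozygous in hypothalamus), 4.33% (KO against WT in motor cortex) and 4.17% (KO against heterozygous in motor cortex). Among all genes tested, the share called between KO and WT was 0.387% in dorsal striatum, 0.0801% in ventral striatum, 0.167% in hypothalamus and 0.0334% in motor cortex. Between heterozygous and WT it was 0.0868%, 0.0534%, 0.0935% and 0.0134%, and between KO and heterozygous 0.461%, 0.0467%, 0.234% and 0.00668%, in the same order. The groups hold 1 to 3 libraries, and a missed threshold does not show that the levels were equal.

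In dorsal striatum, the log2 differences of KO against WT ran from -0.42 to 0.16, and no 95% interval left out 0. They were -0.12 for *Foxp1*, -0.26 for *Meis2* and -0.11 for *Bcl11b*, and under total-count scaling these turned to 0.18, 0.04 and 0.18, where the median over all genes moved to 0.28. Beside them, summed oligodendrocyte markers were at 3591 and 3090 CPM in WT, 4414 to 4685 CPM in heterozygous, and 4646 and 5915 CPM in KO libraries. In ventral striatum the range was -0.18 to 0.51. In hypothalamus it was -0.36 to 0.44, and *Dlx6* was lower in heterozygous (4.82, 7.07 and 2.92 CPM) than WT libraries (10.3, 4.82 and 8.60 CPM) at an unadjusted p of 0.0106 (log2 difference -0.66, adjusted p = 0.748, edgeR likelihood ratio test), with overlap.

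**Figure D4:**
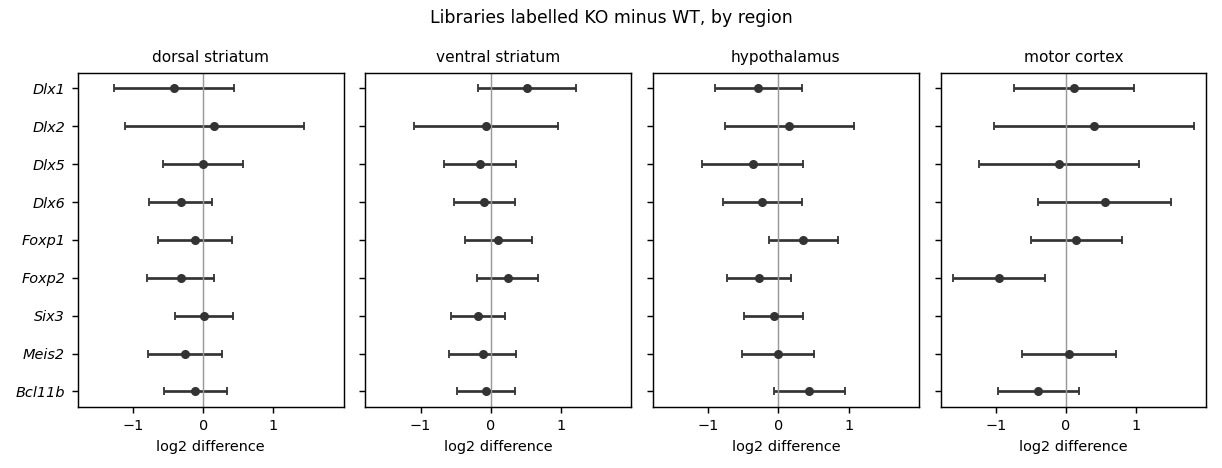
Log2 difference of libraries labelled KO against WT for the 9 genes (horizontal axes), with 95% intervals, in a panel for each region. Each interval crosses 0 except that of Foxp2 in motor cortex, at -0.95 with an adjusted p of 0.772, and Six3 in motor cortex has no interval and is left out.

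In motor cortex, *Foxp2* had the smallest unadjusted p of the 9 genes between KO and the other genotypes. It was at 31.5 CPM in the WT library, 33.8 and 29.3 CPM in heterozygous, and 13.0 and 19.7 CPM in KO libraries, so that both KO libraries lay below the other 3. Against heterozygous the log2 difference was -0.96, with a 95% interval of -1.51 to -0.41 (unadjusted p = 6.27e-04, adjusted p = 0.605), and against WT it was -0.95, -1.61 to -0.29 (unadjusted p = 0.00401, adjusted p = 0.772). With only the groups compared in the fit, both passed the threshold (adjusted p = 3.18e-04 and 0.0203, edgeR likelihood ratio test), where the genes called in all rose from 1 to 54 and from 5 to 35. The spread of the KO against WT fit then came from the 2 KO libraries alone, and the lone WT library is assumed to vary like them. Of all genes tested, 33.7% had KO libraries wholly below the lone WT library in motor cortex, and 16.7% below the heterozygous ones. Summed levels of 14 oligodendrocyte markers followed the same order, at 2646 CPM in WT, 2709 and 2394 CPM in heterozygous, and 1602 and 1866 CPM in KO libraries. Genes of cortical layers gave mixed values. *Tle4*, a corticothalamic gene, was at 77.6 CPM in WT, 87.6 and 92.4 CPM in heterozygous, and 62.9 and 70.3 CPM in KO libraries, while *Cux2*, an upper-layer gene, was at 82.9, 99.0, 163, 183 and 143 CPM. The part of either in the *Foxp2* values was not tested. Also in motor cortex, *Dlx6* was higher in KO (5.38 and 5.95 CPM) than heterozygous libraries (3.14 and 2.83 CPM) at an unadjusted p of 0.0237 (log2 difference 0.91, adjusted p = 1, edgeR likelihood ratio test).

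**Figure D5:**
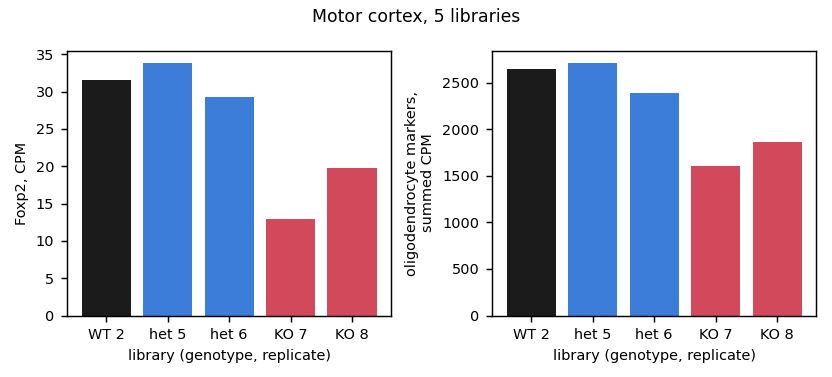
Motor cortex, 5 libraries, with Foxp2 (left, CPM) beside the summed level of 14 oligodendrocyte markers (right, summed CPM). Each bar is 1 library, coloured by genotype label, with no error bar. Foxp2 was at 13.0 and 19.7 CPM in KO and 29.3 to 33.8 CPM in the other libraries, and the oligodendrocyte sum was also lowest in the KO libraries.

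In hypothalamus, *Foxp1* and *Bcl11b* were set by 1 library. KO 8 had 170 CPM of *Foxp1*, against 86.2 to 120 CPM in the other 7, and 21.5 CPM of *Bcl11b*, against 8.57 to 14.7 CPM. The same library had *Slc17a7* at 198 CPM, *Tbr1*, a cortical transcription factor, at 62.1 CPM against a region median of 9.35 CPM, and a cortical excitatory marker sum of 2072 CPM against 766 to 894 CPM. The part of cortical RNA was not tested. KO against WT was 0.36 for *Foxp1* (adjusted p = 0.953) and 0.44 for *Bcl11b* (adjusted p = 0.889), and without KO 8 these became -0.16 and -0.15 (edgeR likelihood ratio test). Against heterozygous libraries *Bcl11b* was at 0.63 (unadjusted p = 0.0158, adjusted p = 0.761, edgeR likelihood ratio test), and at 0.035 without KO 8.

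Whether KO against WT differences varied by region was tested by 54 interaction terms, of which 0 were called by edgeR's likelihood ratio or quasi-likelihood test or by DESeq2, and 2 had an unadjusted p below 0.05 by the first (*Foxp2* in ventral striatum and *Bcl11b* in hypothalamus, both against motor cortex). Over all genes, an unadjusted p below 0.05 was given to 4.43% and 4.03% in these 2 comparisons, and 0% and 0.0134% were called. In the other comparisons 0.127% (dorsal striatum against motor cortex), 0.154% (dorsal striatum against hypothalamus), 0.1% (ventral striatum against hypothalamus) and 0.00668% (dorsal against ventral striatum) were called. For *Foxp2* the KO against WT difference was 0.24 in ventral striatum (adjusted p = 0.947) and 1.19 above that in motor cortex (95% interval 0.40 to 1.99, unadjusted p = 0.00284, adjusted p = 0.853). This interaction rested on the motor cortex difference of -0.95, which had a lone WT library, and on ventral striatum KO 7 and 8. Without KO 7 the ventral striatum difference turned to -0.51, and without KO 8 the interaction rose to 1.69 and passed the threshold (adjusted p = 0.00263, edgeR likelihood ratio test). Against motor cortex, the *Foxp2* change in dorsal striatum was 0.64 higher (adjusted p = 0.959). For *Foxp1* the ventral striatum change was 0.25 below that of hypothalamus (log2 value -0.25, adjusted p = 1). That turned to 0.28 without ventral striatum KO 8 and 0.27 without hypothalamus KO 8, and passed the threshold at -1.09 without ventral striatum KO 7 (adjusted p = 0.042).

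Other transcription factors gave a frame for the 9 genes. Of all genes tested, 21.4% were called higher and 22% lower in dorsal striatum than in motor cortex. Against hypothalamus these shares were 25.5% and 30.7%, with a median log2 difference of -0.045 over all genes. Of 22 further striatal factors tested in dorsal striatum against motor cortex, 14 were higher and 3 lower, with a median log2 difference of 1.41 against 0.03 over all genes. The retinoid receptors *Rxrg* (6.25) and *Rarb* (3.92), the LIM-homeodomain gene *Isl1* (5.69) and *Pbx3* (3.78), which encodes a partner of MEIS proteins, were the highest. *Tox* (-2.54) had the lowest difference. Of 12 interneuron factors, 4 were higher and 5 lower, with a median of -0.27, and *Satb1* (-2.76) was lower and *Gbx1* (2.56) higher. *Lhx8* and *Nkx2-1*, nearly unread in motor cortex, were also called higher and get no fold. Of 24 cortical factors, 20 were lower and 3 higher in dorsal striatum (median -1.48), with *Neurod2* (-5.28), *Tbr1* (-5.14) and *Neurod1* (-4.86) among the lowest. Of 23 hypothalamic factors tested in dorsal striatum against hypothalamus, 22 were lower, with *Otp* at -6.81. Their median was -5.16, or -4.76 with the 13 genes that lacked an error set to their ratio of summed counts, counting at least 3 over a region.

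Close relatives of the 9 genes did not all follow them. Of 12 paralogues listed 8 were tested, among which *Meis1* was higher in dorsal striatum than motor cortex (log2 difference 3.39), *Six4* (-2.71), *Bcl11a* (-0.76) and *Foxp4* (-0.65) were lower, and 4 were not called. The median of the 8 was -0.03, and 43.4% of all genes tested were called in this comparison. Among genes of GABA synthesis and transport, *Slc32a1* (1.77), which encodes the vesicular GABA transporter, and *Gad2* (1.65) and *Gad1* (0.91), which encode the enzymes that make GABA, were higher. With 1 library left out, 4 to 5 genes of this list were called, higher or lower. The others called and their directions are not given here, so *Slc32a1*, *Gad2* and *Gad1* do not stand for the list.

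Some factors of these lists, unlike the 9 genes, were called between genotypes. In dorsal striatum *Nr4a1* (-2.41) was lower and *Tbr1* (4.24) and *Neurod6* (3.12) higher in KO than in heterozygous libraries. There, KO 7 carried the cortical marker levels given above. *Tbr1* was at 70.7 CPM in KO 7 but 2.10 CPM in KO 8, against 1.23 to 2.45 CPM in heterozygous libraries. *Neurod6* was at 18.2 CPM in KO 7 but 1.31 CPM in KO 8, against 0.981 to 1.22 CPM. In hypothalamus, *Lhx8* was lower in both heterozygous (-2.88) and KO (-3.29) than in WT libraries. *Mef2c* was higher in KO than in WT libraries (1.42, adjusted p = 0.00719, edgeR likelihood ratio test), where KO 8 carried the cortical markers. It was at 164 CPM in KO 8 only. KO 7, at 32.5 CPM, lay below the WT libraries (34.9 to 39.6 CPM).

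For each of the 9 genes, those most like it in log2 CPM over the 28 libraries were ranked by Pearson r. They included *Penk*, which encodes enkephalin (r = 0.969 with *Dlx6* and 0.96 with *Dlx5*), *Ppp1r1b*, which encodes DARPP-32 (0.987 with *Meis2*), *Arpp21* (0.991 with *Bcl11b*) and *Hpca*, which encodes hippocalcin (0.993 with *Foxp1*). *Klhl13* was most like *Six3* (0.985), *Fam102b* was the named gene most like *Foxp2* (0.949), *Cmip* most like *Dlx1* (0.917) and *Tmem214* most like *Dlx2* (0.771). All r values are over the same 28 libraries and mostly describe the 4 regions.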

How the data were processed

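RNA had been extracted from frozen dissected tissue, and cDNA was made from it with the Ovation RNA-Seq V2 kit, which does not mark strand, and read as single-end 50-base reads. Per the submitters' processing notes, reads passed through Trimmomatic 0.32, Bowtie2 2.2.3, STAR 2.3.1z8 and SAMtools 0.1.19 on GRCm38, and HTSeq 0.6.1p1 gave the deposited counts, whole reads per Ensembl gene. Of tallied reads 44.8 to 54.2% lay on genes, and the rows of HTSeq for reads on no gene were left out of library sizes. Libraries were compared in pairs within each group, and none was a copy of another. From the counts, CPM used edgeR's TMM scaling (edgeR 4.0.16, R 4.3.3), and log2 CPM a prior count of 2. RPKM was set over merged exons of GENCODE M21. A model of 12 groups was fitted to 14979 genes with likelihood ratio tests, as in the study, and Benjamini-Hochberg adjusted p-values over all genes. Intervals are Wald intervals at 95%. Quasi-likelihood tests, DESeq2 1.42.0, RLE or total-count scaling, no filter, only the groups compared, the replicate number as a block and leaving out each library were alternatives. Samples were grouped by the labels. The scripts were tested on simulated data. The members and gene lists were chosen with earlier results of these data known. Named genes were the 9 genes, list genes called between genotypes, up to 4 called genes of each factor list with the largest difference, markers that check a tissue, and genes most alike by Pearson r. Some genes that this rule names are not reported here. The labels do not say which libraries came from one mouse, so p-values measure only the spread between these libraries.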

Additional observations from a re-analysis of the deposited data

Results flagged for a closer look

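Of the 36 sets formed by 1 gene in the 4 regions over all genotypes, 3 held a library whose gap to its nearest neighbour was large against the whole range of the region by Dixon's test. Chance alone gives such a library in about 1 of 20 sets. In hypothalamus, KO 8 stood apart for *Foxp1*, at 170 CPM against 120 CPM in the next library, and for *Bcl11b*, at 21.5 CPM against 14.7 CPM. In ventral striatum, KO 7 stood apart for *Foxp2*, at 138 CPM against 93.2 CPM.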

How the results depend on the processing

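Region calls of the 9 genes were the same in 423 of 432 recomputed values and in 715 of 729 with a library left out, genotype calls in 646 of 648 and 486 of 486, and interaction calls in 378 of 378 and 430 of 432. No sign change involved a call. With only the groups compared in the fit, 1 gene (*Foxp2*) was called in motor cortex between KO and WT and 1 between KO and heterozygous libraries, against 0 in each, while the genes called in all rose from 5 to 35 and from 1 to 54. Total-count scaling moved the median of all genes by up to 0.28 between KO and WT in dorsal striatum and to -0.41 between dorsal striatum and hypothalamus. It reversed KO against WT in dorsal striatum for *Foxp1* (0.18), *Meis2* (0.038) and *Bcl11b* (0.18), and it gained calls for *Foxp1* (0.36, adjusted p = 0.0331) in ventral striatum against motor cortex, *Dlx2* in dorsal against ventral striatum (-0.82, adjusted p = 0.0378), and *Dlx2* (0.92, adjusted p = 0.0182) and *Dlx5* (0.74, adjusted p = 0.00978) in hypothalamus against motor cortex. *Dlx2* was also called there with only the groups compared (0.69, adjusted p = 0.02, edgeR likelihood ratio test).

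With 1 library left out, 94 genotype, 80 interaction and 2 region values changed sign, and 20 genotype and 12 interaction values did so under the other alternatives. Among the values printed above, those that changed sign with 1 library left out had these ranges: *Dlx5* in dorsal against ventral striatum from -0.18 to 0.073, *Foxp1* in KO against WT from -0.26 to 0.045 in dorsal striatum and from -0.16 to 0.70 in hypothalamus, *Bcl11b* in KO against WT in hypothalamus from -0.15 to 0.82, *Foxp2* in KO against WT in ventral striatum from -0.51 to 0.73, and the *Foxp1* change in ventral striatum against hypothalamus from -1.09 to 0.28. Leaving out the lone WT motor cortex library gave no value for comparisons that need it. The alternative without KO libraries was chosen after seeing the data. With the replicate number as a block, 8 genes were called between dorsal striatum and motor cortex and 6 between the striatal regions, as without it, and no region call changed. Same-number libraries did not deviate together (mean r 0.007 over 34 pairs, none over 0.1). Genotype comparisons within a region could not be paired, because their groups share no replicate number. Groups of 1 to 3 libraries, and counts of 1 to 29 for *Dlx2* in dorsal striatum, limited the precision. No protein table was given, so protein identity was not computed.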
